A study of Homo sapiens with 32 samples.

Results

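Aminoacyl-tRNA synthetases join each amino acid to its tRNAs, and so supply every ribosome with charged tRNA. Human cells keep one set of these enzymes for the cytosol and another, encoded by separate nuclear genes and imported, for translation inside mitochondria. GARS1 and KARS1 are exceptions, since products of each gene serve both places, and they are counted here with the cytosolic enzymes. Several cytosolic synthetases sit together in a multisynthetase complex on a scaffold of AIMP1, AIMP2 and EEF1E1. Many cytosolic synthetase genes are known targets of ATF4, the transcription factor of the integrated stress response, which also drives genes of amino acid synthesis and uptake such as ASNS, PSAT1 and SLC7A11.

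The 35 transcripts described are those of 19 cytosolic and 16 mitochondrial synthetases, chosen by gene symbol from the 60107 genes of the count table. All 35 were found and all 35 passed the filter on low counts in each comparison. RNA came from HEK293T cells, a human embryonic kidney line, and U2OS cells, a human osteosarcoma line, and was sequenced from the 3′ end of transcripts (QuantSeq) in 32 libraries. Counts per gene therefore do not grow with transcript length. The study asked what targeting ATM, a kinase of the DNA damage response, or poisoning topoisomerase 1 with camptothecin (CPT) does to cells.

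HEK293T cells were treated for 24 h with CPT, an ATM inhibitor (KU-55933) or the vehicle DMSO and were harvested after 48 h of recovery. U2OS cells received CPT or DMSO, or were grown untreated for 72 h as wild type (WT) or ATM knockout (KO) cells derived by CRISPR and picked as individual clones. Each of the 8 sets held 4 libraries. By the study's methods the RNA came from the cultures also used for proteomics, for which the CPT dose was higher in U2OS than in HEK293T cells.

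Labels and expression disagreed for libraries 1 to 17. Of the 32 libraries, 14 carry the label of one line and express the markers of the other. CLU, the secreted chaperone clusterin, ranged from 1587 to 4559 CPM (counts scaled to a common library size with TMM factors) in the 16 libraries taken as U2OS and from 27.3 to 145 CPM in the 16 taken as HEK293T. CKB, the brain-type creatine kinase, ranged from 27.2 to 75.0 CPM in the former and from 475 to 934 CPM in the latter. Of 8 line markers, 7 did not overlap between the lines, and NEFL did. Libraries 10, 12, 14 and 16, labelled U2OS ATM KO, were therefore compared as HEK293T CPT with libraries 11, 13 and 15, labelled U2OS WT, and library 17, labelled HEK293T DMSO. Libraries 2, 4, 6 and 8, labelled HEK293T CPT, were compared as U2OS ATM KO with libraries 3, 5 and 7, labelled HEK293T DMSO, and library 1, labelled U2OS WT. Both are called regrouped below. The markers bear on the line and not on the treatment, so the treatment and direction of the regrouped comparisons rest on this regrouping, which also drew on the comparisons listed by the study, and not on the labels. Libraries 18 to 21 are labelled HEK293T ATM KO and are taken as the ATM inhibitor, the only ATM condition for which the study describes RNA of HEK293T cells. The U2OS CPT libraries (26 to 29) and their DMSO controls (30 to 33) were used as labelled. The libraries held between 1232674 and 6362433 counts on genes. Members had between 1 count (MARS2) and 4585 counts (EPRS1) in a library.

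Promoter sequences of the members are shown first. Whether ATF4 bears on any of the changes described below was not tested. The sequence TGATGNAA, on either strand, is the composite site of C/EBP and ATF factors that ATF4 can bind. RefSeq windows from 250 bases before to 50 bases after the annotated start (GRCh38.p14) were at hand for 16 cytosolic and 14 mitochondrial members. LARS1, VARS1, YARS1, AARS2 and VARS2 had no window and were not searched. The site was in a window of 7 of the 16 cytosolic members (43.8%) and of 1 of the 14 mitochondrial members (7.14%), against 4.46% of 27305 genes with a window. The 8 matches follow with 60 bases around each, read in the direction of the gene, with the site in capitals. TTGCATCA and TTTCATCA are the same site read from the other strand.
TARS1, chr5:33440941-33441000 (+): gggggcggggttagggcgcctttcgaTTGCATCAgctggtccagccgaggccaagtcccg
GARS1, chr7:30594819-30594878 (+): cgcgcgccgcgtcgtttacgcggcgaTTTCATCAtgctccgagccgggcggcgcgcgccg
IARS1, chr9:92293677-92293736 (-): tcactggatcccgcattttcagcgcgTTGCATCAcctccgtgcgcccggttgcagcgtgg
CARS1, chr11:3057392-3057451 (-): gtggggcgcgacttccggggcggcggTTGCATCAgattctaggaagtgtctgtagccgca
MARS1, chr12:57488038-57488097 (+): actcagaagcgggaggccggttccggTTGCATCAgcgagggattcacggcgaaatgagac
AARS1, chr16:70289660-70289719 (-): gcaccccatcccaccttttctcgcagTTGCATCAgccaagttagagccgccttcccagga
NARS1, chr18:57621789-57621848 (-): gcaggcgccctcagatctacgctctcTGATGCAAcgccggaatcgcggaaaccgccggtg
YARS2, chr12:32756061-32756120 (-): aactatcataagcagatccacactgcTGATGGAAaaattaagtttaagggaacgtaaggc

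In TARS1, GARS1, IARS1, CARS1, MARS1 and NARS1 the site began within 33 bases of an annotated start. TARS1, GARS1 and CARS1 each had a further window, from another annotated start, without the site. Counted by window, the site was in 7 of 21 cytosolic (33.3%) and 1 of 18 mitochondrial windows (5.56%), against 3.62% of 35116 windows. In AARS1 it began 187 bases and in YARS2 197 bases upstream. The palindromic site of NRF1, the nuclear respiratory factor, searched with its centre base left free, was in a window of 3 of 16 cytosolic members (FARSB, SARS1 and TARS1) and of 3 of 14 mitochondrial members (IARS2, MARS2 and PARS2), against 6.98% of all genes with a window. A match describes the letters and does not show that a factor binds there.

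In HEK293T cells after CPT (regrouped), transcripts of the cytosolic synthetases fell. Of 19 members, 16 were lower and 2 higher in the CPT libraries at an adjusted p under 0.05 (edgeR's quasi-likelihood test, Benjamini-Hochberg over all genes), and KARS1 did not pass. For comparison, 17.3% of 19464 genes tested were called lower and 17.6% higher. The median log2 fold change was -0.86 for the cytosolic members and 0.04 over all genes. Of the mitochondrial members, 9 of 16 were called lower and 0 higher, with a median of -0.62. By the study's own cutoff, which also asks for an absolute log2 fold change over 1, 7 cytosolic and 4 mitochondrial members were called, all lower, against 4.45% of all genes called lower. In bulk libraries a lower level in every cell and a smaller share of cells with a transcript cannot be told apart.

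YARS1, the tyrosyl-tRNA synthetase, fell most among the cytosolic members. Its level was 82.9, 98.1, 96.5 and 120.3 CPM in CPT libraries 10, 12, 14 and 16, and 263, 313, 287 and 203 CPM in control libraries 11, 13, 15 and 17. The groups did not overlap, and the log2 fold change was -1.41 ± 0.13 (SE, n = 4 per group, edgeR adjusted p = 2.50e-08).

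IARS1, the isoleucyl-tRNA synthetase of the multisynthetase complex, measured 64.4, 59.5, 67.8 and 53.8 CPM in the same CPT libraries and 144, 114, 168 and 173 CPM in the controls. All 4 CPT libraries lay below all 4 controls, with a log2 fold change of -1.27 ± 0.14 (edgeR adjusted p = 2.90e-07). GARS1, the glycyl-tRNA synthetase of both compartments, measured 68.0, 72.3, 79.0 and 92.3 CPM after CPT and 175, 246, 180.3 and 144 CPM in the controls. These groups were also apart, with a log2 fold change of -1.24 ± 0.14 (edgeR adjusted p = 3.44e-07). KARS1, the lysyl-tRNA synthetase and the other gene that serves both compartments, measured 133, 155, 146 and 159 CPM after CPT and 182, 190.1, 159 and 178 CPM in the controls, a log2 fold change of -0.24 ± 0.11 that did not pass the threshold (edgeR adjusted p = 0.0838).

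MARS1, which charges methionine, had 65.8, 68.2, 73.6 and 79.6 CPM after CPT and 142, 201, 164 and 106 CPM in the controls. CARS1, which charges cysteine, had 60.2, 57.9, 55.8 and 80.9 CPM after CPT and 107, 184, 144 and 107 CPM in the controls. FARSB, the beta subunit of the phenylalanyl-tRNA synthetase, had 26.99, 23.1, 23.2 and 31.8 CPM after CPT and 52.0, 66.5, 52.8 and 49.9 CPM in the controls. In each of the 3 the groups did not overlap, and the log2 fold changes were -1.08, -1.07 and -1.05. AARS1, the alanyl enzyme, was the other member past a log2 fold change of -1 (-1.04 ± 0.14). The remaining cytosolic members called lower ran from VARS1 (-0.99) to NARS1 (-0.32), and included both EPRS1, the joint glutamyl and prolyl enzyme (-0.77), and FARSA, the alpha subunit of the phenylalanyl enzyme (-0.64).

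HARS1 and RARS1 went the other way. HARS1, the histidyl-tRNA synthetase, measured 32.9, 35.6, 35.8 and 46.4 CPM after CPT and 31.3, 24.9, 29.4 and 28.6 CPM in the controls (log2 fold change 0.42 ± 0.14, edgeR adjusted p = 0.0201). RARS1, the arginyl-tRNA synthetase, measured 274, 349, 279 and 319 CPM after CPT and 218, 280, 229 and 235 CPM in the controls (0.36 ± 0.11, edgeR adjusted p = 0.0169). The HARS1 groups did not overlap, while RARS1 in control library 13 lay above its level in CPT libraries 10 and 14. HARS1 lost its call in 1 and RARS1 in 2 of 15 alternative settings, and NARS1, with the smallest fall among those called, in 9 of the 15 (edgeR or DESeq2 adjusted p up to 0.123).

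Among the mitochondrial members, SARS2, which charges serine, fell most. It measured 5.34, 4.35, 3.72 and 5.96 CPM after CPT and 12.6, 13.7, 13.7 and 10.9 CPM in the controls, a log2 fold change of -1.36 ± 0.21 (edgeR adjusted p = 2.08e-05). NARS2, the asparaginyl enzyme, measured 14.6, 17.1, 16.03 and 12.5 CPM after CPT and 29.6, 27.9, 33.9 and 36.1 CPM in the controls (-1.08 ± 0.16). WARS2, the tryptophanyl enzyme, measured 30.6, 38.6, 32.9 and 33.1 CPM after CPT and 67.8, 77.8, 69.9 and 72.4 CPM in the controls (-1.07 ± 0.12, edgeR adjusted p = 6.04e-07). For all 3 the CPT libraries lay below the controls.

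FARS2, the phenylalanyl enzyme of mitochondria, measured 3.37, 2.72, 4.58 and 5.50 CPM after CPT and 8.15, 8.12, 9.67 and 8.31 CPM in the controls (-1.02 ± 0.23). VARS2, the valyl enzyme, measured 9.28, 7.34, 10.9 and 14.97 CPM after CPT and 23.5, 26.4, 18.9 and 13.2 CPM in the controls (-0.91 ± 0.21), and its control library 17 lay inside the CPT range. PARS2, the prolyl enzyme, measured 4.50, 8.15, 4.58 and 9.47 CPM after CPT and 13.9, 12.01, 10.1 and 13.4 CPM in the controls (-0.83 ± 0.22). EARS2, IARS2 and LARS2 were also called lower, by log2 fold changes of -0.67, -0.66 and -0.58. RARS2, the arginyl enzyme, had the smallest difference of the compartment (-0.01 ± 0.13), and the 95% interval of its log2 fold change ran from -0.26 to 0.23.

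**Figure D1:**
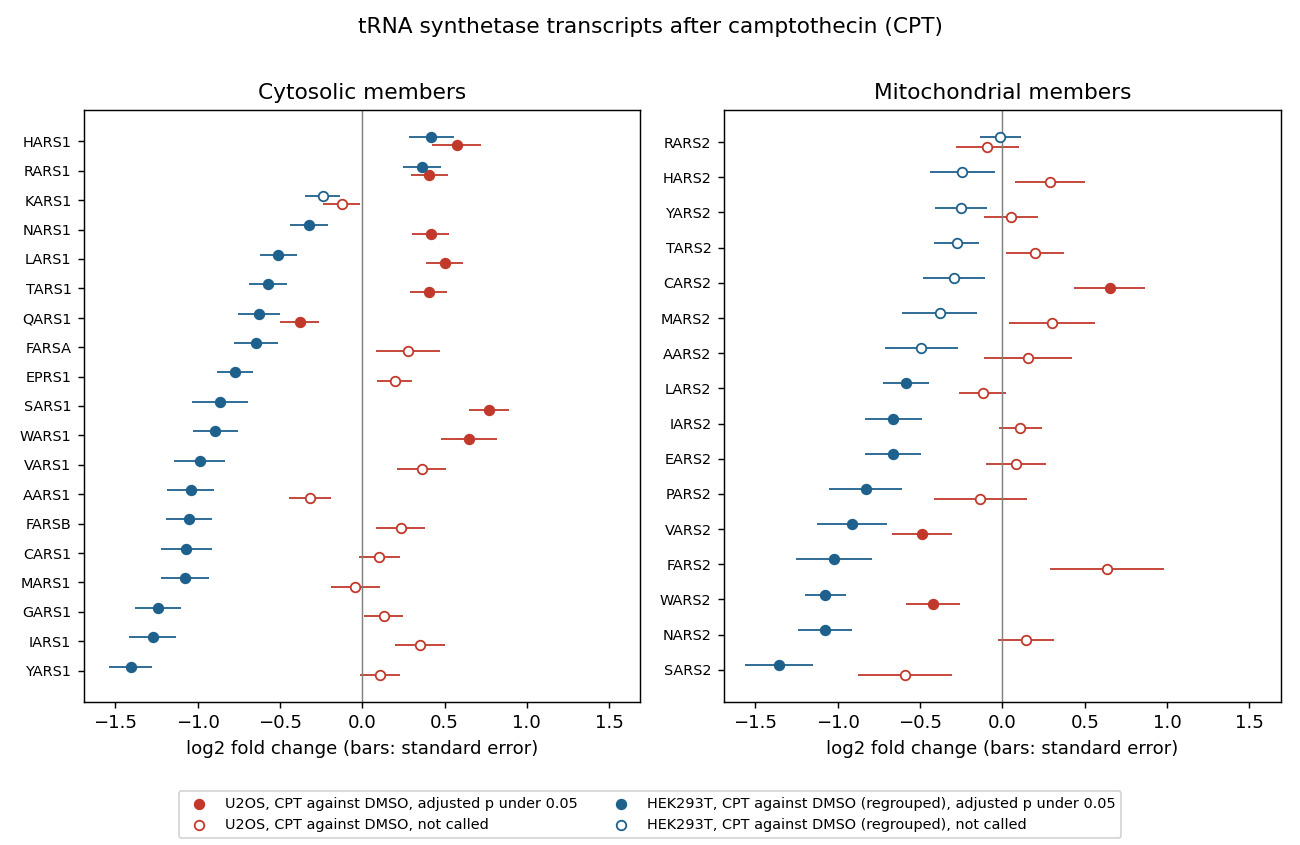
Log2 fold change (x axis) of each cytosolic (left) and mitochondrial (right) member after CPT against DMSO, in U2OS cells (red) and in HEK293T cells from the regrouped libraries (blue), with standard errors from 4 libraries per group and filled points at an adjusted p under 0.05. With TMM scaling, all mitochondrial members and all cytosolic members other than HARS1 and RARS1 lie below 0 in HEK293T cells, while 15 of 19 cytosolic and 10 of 16 mitochondrial members lie above it in U2OS cells, against 12 and 5 with scaling to library size alone.

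The genes around the synthetases fell as well in HEK293T cells. The 3 scaffold genes were all called lower, with log2 fold changes of -0.51 (AIMP1), -0.35 (AIMP2) and -0.54 (EEF1E1). Of 5 genes that help charging or its use in mitochondria, 4 were called lower: TUFM, the mitochondrial elongation factor (-0.71), GATB and QRSL1, subunits of the amidotransferase that makes glutaminyl-tRNA (-0.82 and -0.41), and MTFMT, which formylates the initiator methionyl-tRNA (-0.58). Of 3 editing and repair genes, DTD1, which removes D-amino acids from tRNA, was called lower (-1.15). Of ATF4 and 7 of its other targets, 7 were called lower and DDIT3 was not (-0.48, adjusted p = 0.100 by edgeR). ATF4 measured 267, 218, 276 and 323 CPM after CPT and 926, 1490, 871 and 701 CPM in the controls, a log2 fold change of -1.87 ± 0.17. Fold changes of ASNS (asparagine synthetase), SLC7A11 (the cystine transporter), CHAC1, PSAT1 and TRIB3 were -3.18, -3.47, -2.76, -2.34 and -1.94 on the log2 scale. SESN2 was the other gene called lower, with the smallest fall of the list (-0.45). It measured 160.5, 160.3, 138 and 211.5 CPM after CPT and 166.6, 323, 272.4 and 162.7 CPM in the controls, so the groups overlapped. Control library 13, which was highest for ATF4 (1490 CPM) and ASNS (398 CPM), was also highest for YARS1, GARS1, MARS1, CARS1, FARSB and SARS1. Without library 13, the counts of members called stayed within 16 to 18 cytosolic and 9 to 11 mitochondrial, the range over each library left out.

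When libraries were instead grouped exactly as labelled, which makes 10, 12, 14 and 16 U2OS ATM KO and sets them against 11, 13, 15 and library 1 in place of 17 as U2OS WT, 5 cytosolic and 2 mitochondrial members were called lower and 0 higher, and the medians were -0.72 and -0.45. Library 1 expresses the U2OS markers and the other 7 express those of HEK293T. The groups thus hold 1 library of the other line. The share of all genes called in this grouping was not counted, so these calls have no background beside them.

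In U2OS cells after CPT, used as labelled, the differences were smaller, and mostly upwards among the cytosolic members. Of 19 cytosolic members, 7 were called higher and 1 lower, against 16.6% of 19080 genes called higher and 15.3% called lower. The median log2 fold change was 0.28 for the cytosolic members and 0.01 over all genes. Of 16 mitochondrial members, 1 was called higher and 2 lower, with a median of 0.10. No member of either compartment also passed an absolute log2 fold change of 1, where 13.5% of all genes did. With scaling to library size alone, the median over all genes moved by -0.17 on the log2 scale, and 4 cytosolic members were called higher and 2 lower, with a median of 0.11. Of the mitochondrial members, SARS2, VARS2 and WARS2 were then called lower and 0 higher, so that CARS2 lost its call, and the median was -0.08. The share of all genes called with this scaling was not counted, so these calls have no background beside them.

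SARS1, the seryl-tRNA synthetase of the cytosol, rose most. It measured 111, 120.4, 115 and 107 CPM in CPT libraries 26 to 29 and 62.4, 55.8, 66.5 and 81.8 CPM in DMSO libraries 30 to 33. The groups did not overlap, and the log2 fold change was 0.77 ± 0.12 (edgeR adjusted p = 8.69e-06). WARS1, the tryptophanyl enzyme, which is also known as an interferon-induced gene, measured 20.2, 22.5, 26.7 and 26.1 CPM after CPT and 17.9, 13.1, 12.7 and 17.04 CPM in DMSO (0.65 ± 0.17, edgeR adjusted p = 0.00325). HARS1 measured 27.7, 33.1, 29.5 and 33.8 CPM after CPT and 19.6, 18.3, 21.7 and 23.9 CPM in DMSO (0.57 ± 0.15, edgeR adjusted p = 0.00313). In all 3 every CPT library was above every DMSO library.

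LARS1, the leucyl enzyme, measured 215, 187, 193 and 177 CPM after CPT and 150, 134, 142 and 123 CPM in DMSO (0.50 ± 0.11). NARS1, the asparaginyl enzyme, measured 124, 147, 137 and 126 CPM after CPT and 104, 93.4, 99.6 and 106 CPM in DMSO (0.42 ± 0.11). RARS1 measured 223, 248, 250 and 224 CPM after CPT and 191, 161, 207 and 158 CPM in DMSO (0.41 ± 0.11). The CPT and DMSO libraries did not overlap for these 3. TARS1, the threonyl enzyme, was the other member called higher (0.40 ± 0.11), and QARS1, the glutaminyl enzyme, was called lower (-0.38 ± 0.12). NARS1, RARS1 and TARS1 each lost their call with scaling to library size alone (edgeR adjusted p = 0.113, 0.135 and 0.142).

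Of the mitochondrial members, CARS2, the cysteinyl enzyme, measured 14.2, 11.6, 13.4 and 9.51 CPM after CPT and 5.86, 7.92, 8.66 and 8.65 CPM in DMSO (0.65 ± 0.21, edgeR adjusted p = 0.0193). VARS2 measured 16.9, 17.1, 21.6 and 26.1 CPM after CPT and 19.3, 37.2, 27.2 and 31.7 CPM in DMSO (-0.49 ± 0.18, edgeR adjusted p = 0.0398). WARS2 measured 19.2, 18.5, 15.3 and 22.5 CPM after CPT and 29.3, 20.3, 25.4 and 26.7 CPM in DMSO (-0.42 ± 0.16, edgeR adjusted p = 0.0488). CARS2 did not overlap between the groups, while VARS2 and WARS2 did. Leaving out library 26 or library 28 left 0 of the 3 called, leaving out library 27, 30 or 33 left 1, and DESeq2 called 0.

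Beside the synthetases in U2OS cells, none of the 3 scaffold genes passed the test (smallest adjusted p = 0.262 by edgeR). TUFM was called higher (0.34) and DTD1 lower (-0.58). ATF4 measured 151, 105, 118 and 110 CPM after CPT and 136, 155, 153 and 230.4 CPM in DMSO and was called lower (-0.47 ± 0.14). ASNS (-0.66) and SLC7A11 (-1.89) were also lower, and SESN2, a stress-induced inhibitor of mTORC1 signalling and also a p53 target, was higher (1.48). The other 4 genes of this list did not pass.

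The CPT effect differed between the lines for 21 of the 35 members, 15 cytosolic and 6 mitochondrial, and all 21 had the higher log2 fold change in U2OS cells (edgeR's test of the interaction over 22363 genes, of which 9.86% had a higher and 10.5% a lower effect in U2OS). Of these members 12 also differed by more than 1 on the log2 scale, against 5.15% of genes. The median difference was 1.02 on the log2 scale for cytosolic members, 0.67 for mitochondrial members and -0.06 over all genes. The comparison is also one between 2 experiments, so line, dose and experiment cannot be told apart, and the HEK293T side rests on the regrouping.

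Differences were largest for FARS2 (1.65 ± 0.42), SARS1 (1.63 ± 0.22), IARS1 (1.63 ± 0.21), WARS1 (1.54 ± 0.22), YARS1 (1.51 ± 0.19) and GARS1 (1.37 ± 0.19). They arose in different ways. SARS1 and WARS1 were called in both lines with opposite signs (log2 fold changes of -0.86 and -0.89 in HEK293T against 0.77 and 0.65 in U2OS), while YARS1, IARS1 and GARS1 were called lower in HEK293T and had log2 fold changes of 0.11, 0.35 and 0.13 in U2OS that did not pass. FARS2 was called lower in HEK293T and had 3.71, 5.45, 3.15 and 5.64 CPM after CPT against 3.81, 2.07, 1.55 and 3.93 CPM in U2OS DMSO libraries (0.63 ± 0.35, not called). At these levels FARS2 rested on few counts.

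In all, 10 members were called in both lines, of 11 called in U2OS and 27 in HEK293T cells. Of all genes tested, 31.9% were called in U2OS and 34.9% in HEK293T cells. The share called in both was not counted, so these 10 have no background beside them. SARS1, WARS1, LARS1, TARS1 and NARS1 had opposite signs, though NARS1 lost its HEK293T call in 9 of 15 settings. QARS1, VARS2 and WARS2 were lower in both, and HARS1 and RARS1 were higher in both. The U2OS calls of VARS2 and WARS2 were lost in 7 and 8 of 15 settings. For HARS1, RARS1, QARS1 and KARS1 the difference between the lines did not pass the test (0.15 ± 0.21, 0.05 ± 0.17, 0.25 ± 0.18 and 0.12 ± 0.16). HARS1 and HARS2 lie head to head on chromosome 5, and their RefSeq windows overlap. HARS2 did not pass in either line (0.29 ± 0.21 in U2OS and -0.24 ± 0.20 in HEK293T).

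**Figure D2:**
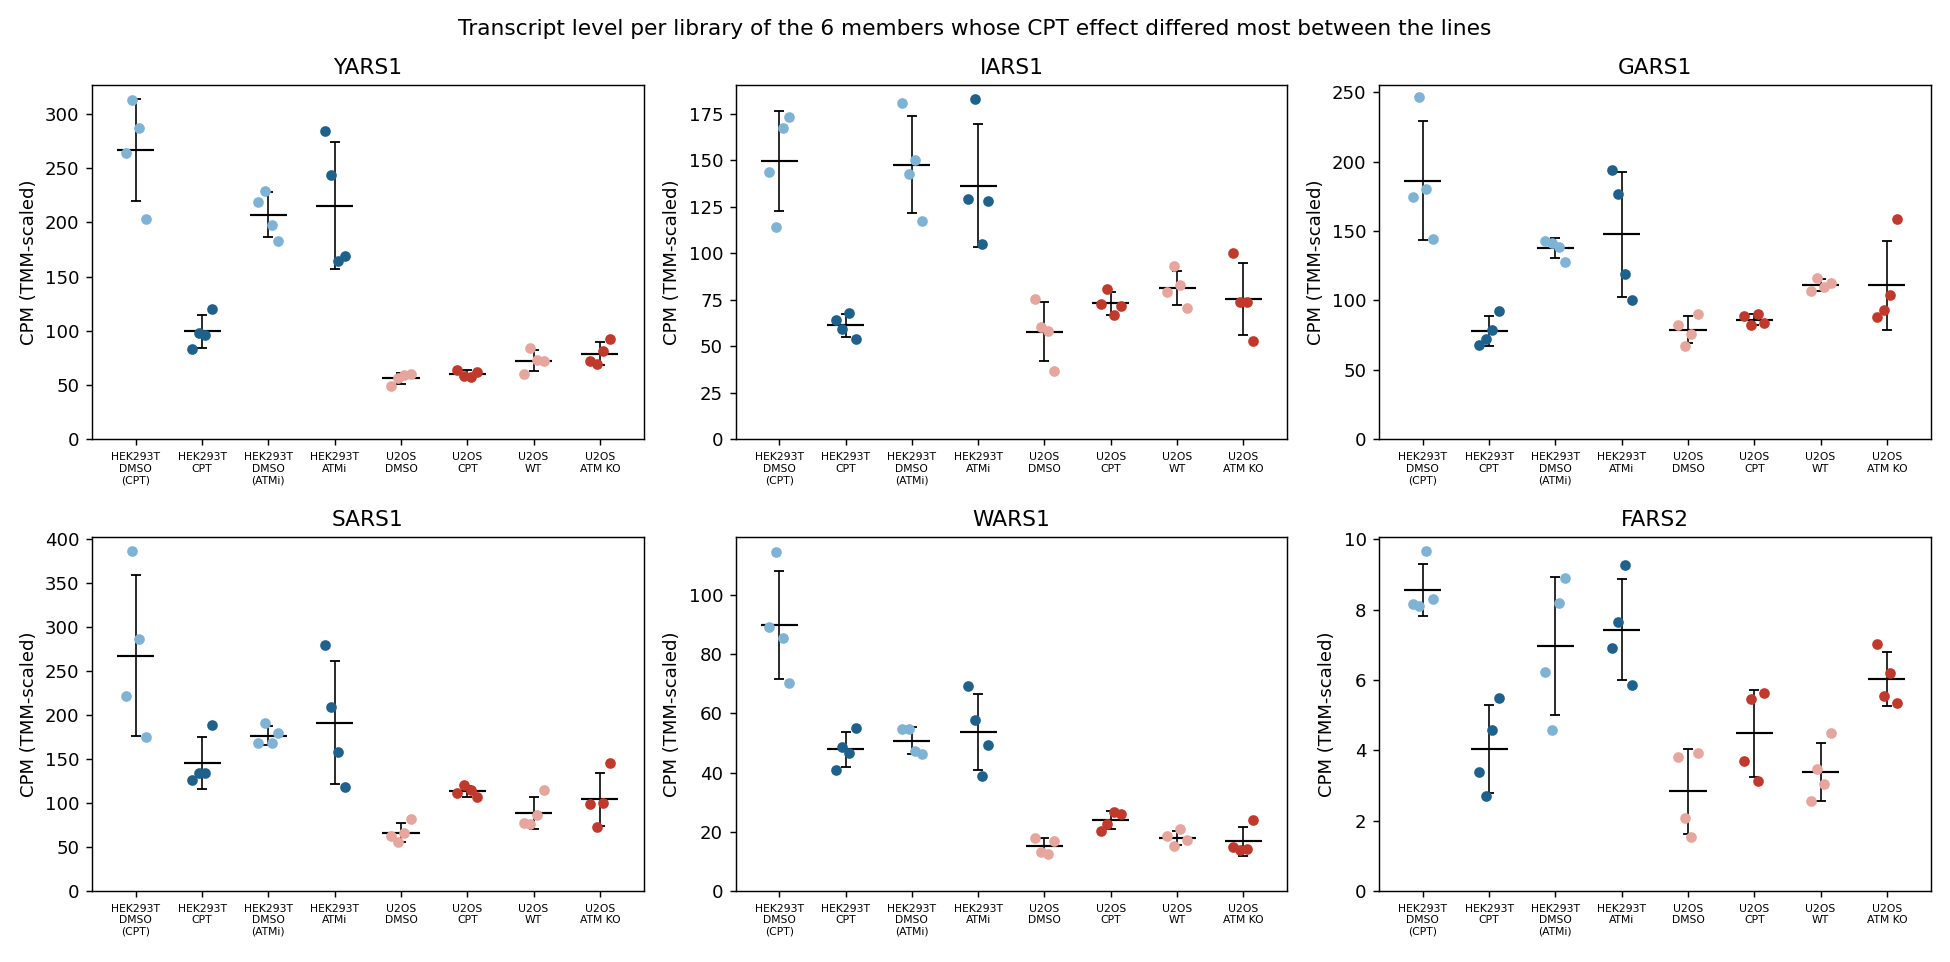
Level in each library (y axis, TMM-scaled CPM, starting at 0) of the 6 members with the largest difference in CPT effect between the lines, in the 8 sets of 4 libraries (x axis; ATMi is the ATM inhibitor), with the mean and SD as black lines and HEK293T in blue and U2OS in red. YARS1 lies between 203 and 313 CPM in the HEK293T controls of the CPT comparison, between 82.9 and 120.3 CPM after CPT, and between 49.2 and 92.4 CPM in all U2OS libraries.

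Control levels differed between the lines and between the HEK293T experiments. The mean log2 CPM of the cytosolic members was 7.21 ± 0.16 (SD, n = 4) in the HEK293T controls of the CPT comparison and 6.82 ± 0.04 in those of the ATM inhibitor comparison, and the groups did not overlap. It was 6.08 ± 0.04 in the U2OS DMSO libraries and 6.40 ± 0.09 in the U2OS WT libraries. After CPT it was 6.48 ± 0.13 in HEK293T and 6.31 ± 0.04 in U2OS cells. The mitochondrial members stood at 4.66 ± 0.04 in the HEK293T controls of the CPT comparison and 4.02 ± 0.09 after CPT, and at 3.85 ± 0.08 and 3.88 ± 0.10 in U2OS DMSO and CPT libraries.

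The gap between the compartments, the mean log2 CPM of cytosolic minus that of mitochondrial members, stayed between 2.09 and 2.78 over all 32 libraries. It was 2.55 ± 0.18 in the HEK293T controls of the CPT comparison and 2.46 ± 0.04 after CPT, and the ranges overlapped. In U2OS it was 2.23 ± 0.10 in DMSO and 2.43 ± 0.11 after CPT. The CPT libraries (2.35 to 2.59) lay above the DMSO libraries (2.14 to 2.34), but barely, with 2.347 in CPT library 26 and 2.344 in DMSO library 33. These gaps are descriptions without a test.

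**Figure D3:**
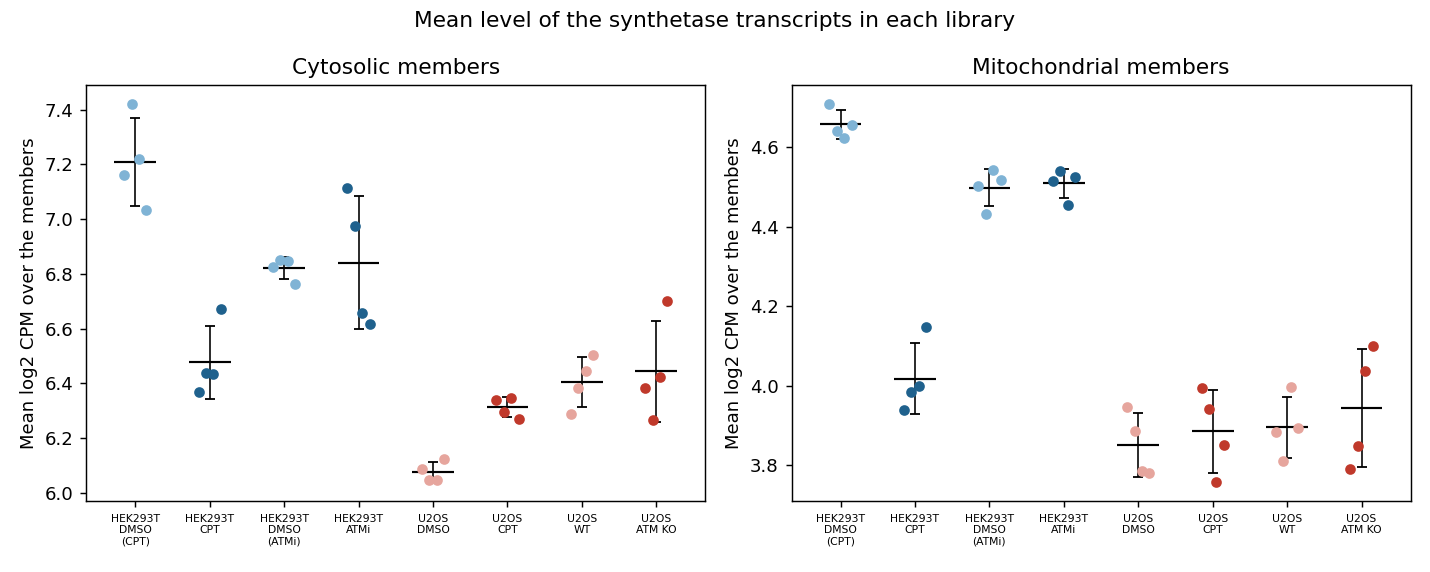
Mean log2 CPM over the 19 cytosolic (left) and 16 mitochondrial (right) members in each library (points), by set (x axis), with the mean and SD of 4 libraries as black lines. With TMM scaling, the HEK293T CPT libraries lie below their controls in both panels. The U2OS CPT libraries (6.27 to 6.35) lie above their controls (6.04 to 6.12) in the cytosolic panel only. Scaling to library size alone moved the U2OS CPT fold changes over all genes by a median of -0.17 on the log2 scale. Levels were not drawn with that scaling, so the separation holds for TMM only.

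The ATM inhibitor left no member past the threshold in HEK293T cells. The counts were 0 of 19 and 0 of 16 by edgeR, against 1 of 18413 genes in all (0.00543%), and DESeq2 also called 0. At an unadjusted p under 0.05 there was 1 cytosolic member, MARS1 (0.33 ± 0.16), and 1 mitochondrial member, CARS2 (0.43 ± 0.16), against 1019 of 18413 genes. The treated libraries were not alike. MARS1 measured 247, 230, 125 and 109 CPM in libraries 18 to 21 and 139, 144, 147 and 140 CPM in control libraries 22 to 25. ATF4 measured 1352, 1006, 598 and 543 CPM in the treated and 741, 792, 741 and 770 CPM in the control libraries. Libraries 18 and 19 lay above and libraries 20 and 21 below all 4 controls for both genes. ASNS had the same order, with 495, 403, 200 and 178 CPM against 218 to 330 CPM in the controls. YARS1 measured 284, 244, 165 and 169 CPM in the treated and 219, 229, 197 and 183 CPM in the control libraries, and GARS1 194, 177, 119 and 101 CPM against 143, 142, 138 and 127 CPM. Not every gene had this order. For SESN2, library 19 (182 CPM) lay below all 4 controls (194 to 261 CPM). For TARS1, libraries 18 and 19 (334 and 339 CPM) lay inside the control range (317 to 355 CPM). The mean log2 CPM of the cytosolic members was 7.11, 6.97, 6.66 and 6.62 in libraries 18 to 21, against 6.76 to 6.85 in the controls, while that of the mitochondrial members was 4.52, 4.54, 4.46 and 4.53, against 4.43 to 4.54. Without library 21, which was lowest for MARS1 among the treated libraries, 1 cytosolic member, MARS1, was called higher (0.51, edgeR adjusted p = 0.0477). Over the fits with a library left out, the count of cytosolic members called ran from 0 to 1. The share of all genes called in these fits was not counted, so the call has no background beside it.

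In U2OS cells with and without ATM (regrouped), 0 of 19 cytosolic members and 1 of 16 mitochondrial members passed, against 6.43% of 18591 genes called higher and 6.56% called lower. At an unadjusted p under 0.05 there were 1 cytosolic and 2 mitochondrial members, against 4724 of 18591 genes. DESeq2 called 0 and 0. With an absolute log2 fold change over 1 as well, 0 members passed, against 5.24% of genes. The transcript of ATM itself measured 66.8, 61.2, 61.1 and 35.4 CPM in the libraries taken as KO and 69.0, 78.2, 59.3 and 65.6 CPM in those taken as WT (log2 fold change -0.31, edgeR adjusted p = 0.255), so the groups overlapped. A tag at the 3′ end of the transcript does not show a CRISPR edit. The KO cells were picked as individual clones, so loss of ATM and clone cannot be told apart in this comparison. IARS2, the isoleucyl enzyme of mitochondria, measured 87.1, 64.5, 84.7 and 57.9 CPM in the former and 127, 93.1, 112 and 75.2 CPM in the latter (-0.47 ± 0.16, edgeR adjusted p = 0.0459). The groups overlapped at library 7 of the WT set, and the call was lost in 9 of 15 alternative settings. Cytosolic differences ran from -0.27 (LARS1) to 0.37 (VARS1). Grouped as labelled, which makes this HEK293T CPT against DMSO and puts library 17 in place of library 1, 0 cytosolic and 0 mitochondrial members were called. The share of all genes called in that grouping was not counted.

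Of the genes around the synthetases, 0 of 3 scaffold genes, 1 of 5 charging helpers and 2 of 3 editing and repair genes passed in this comparison. DTD1 measured 18.5, 15.01, 14.5 and 17.1 CPM in KO libraries and 27.3, 36.1, 26.1 and 31.6 CPM in WT libraries (-0.93 ± 0.19, edgeR adjusted p = 3.25e-04), and the groups were apart. MTFMT was called lower (-0.78) and AARSD1, an editing protein for mischarged alanyl-tRNA, higher (1.57), at 6.67 CPM or less in each of these libraries. ASNS (0.56) and SESN2 (0.77) were called higher and the other 6 of ATF4 and its targets did not pass.

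**Figure D4:**
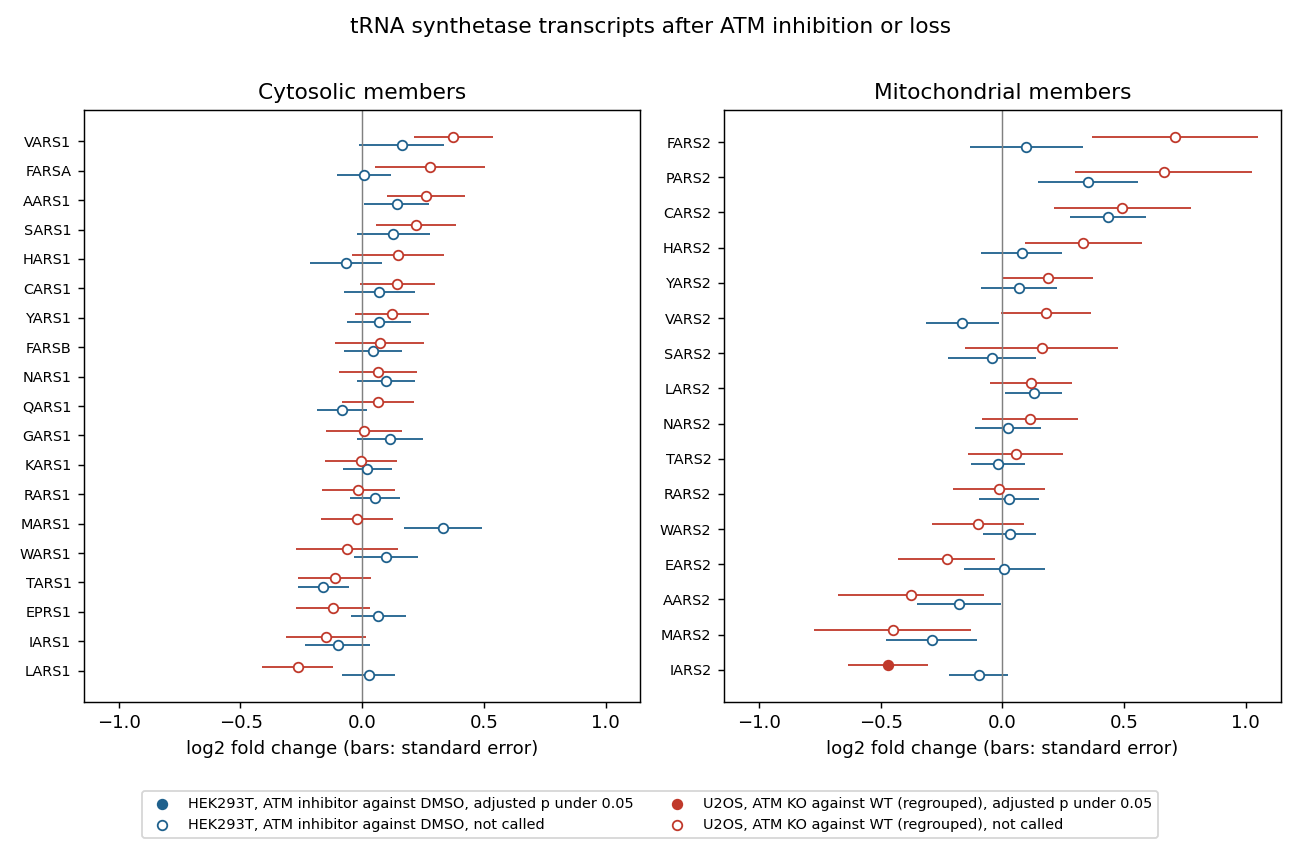
Log2 fold change (x axis) of each cytosolic (left) and mitochondrial (right) member for the ATM inhibitor against DMSO in HEK293T cells (blue) and ATM KO against WT in U2OS cells from the regrouped libraries (red), with standard errors from 4 libraries per group and filled points at an adjusted p under 0.05. IARS2 (-0.47) in U2OS cells is the single filled point, and all cytosolic members lie between -0.27 and 0.37.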

How the data were processed

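Counts were deposited for 32 libraries: the authors ran the Lexogen QuantSeq FWD UMI pipeline and deposited counts per gene without normalization. The build, annotation and alignment settings are not given in the sources used here. The table held 60107 genes, besides 5 summary rows and 92 spike-in rows, which were left out. Summary rows held 10.9% to 40.6% of all counts. In the regrouped HEK293T CPT comparison they held 17.0% to 19.8% in the CPT libraries and 10.9% to 12.4% in the controls. Whether this difference bears on the fold changes was not tested. Symbols were matched by Ensembl identifier, and all 35 members were found.

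Members, lists and comparisons were chosen with earlier results of these data known. Column sets for libraries 1 to 17 follow the expression of line markers and the comparisons listed in the study's supplement, which served only to identify columns. Labels were used as an alternative. Replicates are described by the study as independent repeats, but labels do not say so, and p-values measure the spread between libraries.

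Tests used edgeR 4.0.16 in R 4.3.3 (TMM, quasi-likelihood F-test, genes over 1 count in 2 or more libraries), with a call at an adjusted p under 0.05. The study used a likelihood ratio test and an absolute log2 fold change over 1, which were run beside it, as were RLE normalization, filterByExpr, no filter, DESeq2 1.42.0, one fit over all libraries, and each library left out. Scaling to library size alone was added after seeing the data. The procedure was tested on simulated counts. Levels are CPM with TMM factors over all 32 libraries, and mean log2 CPM uses a prior count of 2. A floor of 3 counts is 0.472 to 2.43 CPM, for counting error alone. Values in every library are given for up to 6 called members with the largest change per compartment and comparison, up to 6 whose CPT effect differs between lines, and GARS1 and KARS1. Other genes are named where called.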

Additional observations from a re-analysis of the deposited data

Results flagged for a closer look

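The CPT effect differed between the lines for 21 members, each with a higher log2 fold change in U2OS than in HEK293T cells by edgeR's interaction test. Among the cytosolic members the differences were 1.63 for SARS1, 1.63 for IARS1, 1.54 for WARS1, 1.51 for YARS1, 1.37 for GARS1, 1.35 for VARS1, 1.28 for FARSB, 1.17 for CARS1, 1.04 for MARS1, 1.02 for LARS1, 0.98 for TARS1, 0.97 for EPRS1, 0.92 for FARSA, 0.74 for NARS1 and 0.72 for AARS1. Among the mitochondrial members they were 1.65 for FARS2, 1.22 for NARS2, 0.94 for CARS2, 0.78 for IARS2, 0.76 for EARS2 and 0.66 for WARS2.

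In 184 tests of 4 libraries each, 9 had one library far from the other 3 (Dixon's ratio of gap to range above its critical value), and chance gives such a gap in about 1 of 20 tests. In the HEK293T CPT libraries, library 16 was lowest for IARS2 (82.5 CPM) and highest for SARS1 (189 CPM). In their controls, library 15 was highest for FARS2 (9.67 CPM). Library 8 of the U2OS ATM KO set was highest for MARS1 (147 CPM) and WARS1 (24.0 CPM). In the U2OS WT set, library 1 was lowest for MARS1 (99.7 CPM) and library 5 highest for VARS2 (34.6 CPM). Library 28 of the U2OS CPT set was lowest for PARS2 (3.15 CPM), and library 18 of the ATM inhibitor set was highest for VARS2 (29.997 CPM).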

How the results depend on the processing

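Under the cutoff that adds an absolute log2 fold change over 1, the U2OS CPT comparison called 0 cytosolic and 0 mitochondrial members, the regrouped HEK293T CPT comparison 7 and 4, the U2OS ATM KO comparison 0 mitochondrial members, and the difference between the lines 12 members. With DESeq2, 0 mitochondrial members were called in U2OS CPT and 0 in U2OS ATM KO, and in the latter filterByExpr, scaling to library size alone and one fit over all 32 libraries also gave 0. Grouped as the labels give them, libraries 10, 12, 14 and 16 (regrouped as HEK293T CPT, labelled U2OS ATM KO) had 5 cytosolic and 2 mitochondrial members called against their labelled WT controls, and libraries 2, 4, 6 and 8 (regrouped as U2OS ATM KO, labelled HEK293T CPT) had 0 mitochondrial against their labelled DMSO controls. Shares of all genes called were not counted for these groupings, for scaling to library size alone or for fits with a library left out. With each library left out in turn, U2OS CPT called 8 to 10 cytosolic and 0 to 3 mitochondrial members, the ATM inhibitor 0 to 1 cytosolic, HEK293T CPT 16 to 18 cytosolic and 9 to 11 mitochondrial, U2OS ATM KO 0 to 1 mitochondrial, and the difference between the lines 20 to 21 members. The other counts were within 1.5 times, and no called member changed sign in the settings run. Among called members, 15 of 18 cytosolic and 9 of 9 mitochondrial in HEK293T CPT, and 5 of 8 and 0 of 3 in U2OS CPT, stayed called in all 15 settings that kept the column sets. The causes were not tested. The lowest counts were among the mitochondrial members, of which MARS2 had 1 count in library 2. No paired analysis was possible because the labels give the groups compared no shared replicate numbers and do not say which libraries were made together.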
